A study of Homo sapiens with 9 samples.

Results

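*RELB* and 9 other genes of the NF-kB pathway were followed in ALL-SIL, an established cell line from a T cell acute lymphoblastic leukemia (T-ALL), after knockdown of *PHF6*, a PHD finger protein encoded by a gene that is mutated in T-ALL. The 10 genes were the NF-kB subunits *RELB*, *RELA*, *REL*, *NFKB1* and *NFKB2*, the feedback inhibitors *NFKBIA* and *TNFAIP3*, and the target genes *BIRC3*, *TRAF1* and *ICAM1*. All probes whose transcript identifier led to one of these symbols were taken, which gave 10 probes for 9 genes out of 19722 genes named on the array and 57176 probes in all. The table used for names paired no probe with *NFKB2*, which was not analysed here, although a probe for it may be among those the table left unnamed. The genes were chosen with their values in these samples known, so the differences of the 10 probes between groups are a description and carry no test.

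RNA was measured on 9 one-colour arrays, 1 for each of 3 cell samples that had received a control siRNA by electroporation, 3 that had received *PHF6* siRNA1 and 3 that had received *PHF6* siRNA2. The samples of a group are numbered 1 to 3 as replicates. Apart from the siRNA, no treatment is named in the labels for any group, and all 9 samples share the electroporation. The labels and the study's methods give collection at 96 h, whereas a free-text description in the labels gives 72 h. The *PHF6* siRNAs were an ON-TARGETplus SMARTpool, which is a mixture of siRNAs, and a Silencer Select siRNA, but the sources used here do not tell which of these was called siRNA1. The methods call the samples of a group independent, without saying whether they were separate cultures, so p-values speak only for these samples. With the replicate number as a block, they measure the spread that remains after differences between replicate numbers are removed. Without the block, they measure the full spread between the samples of a group. Each array gave a median spot intensity between 43.5 and 58.0, beside a median of 23.0 to 27.5 in its negative-control spots. *PHF6* itself fell by 1.63 on the log2 scale under siRNA1 (SE 0.11, n = 3, limma adjusted p = 0.000598) and fell by 1.83 under siRNA2 (SE 0.11, n = 3, limma adjusted p = 0.000214), lower in 3 of 3 pairs with each. All 12 T lineage markers, *TLX1* included, were well above background on 9 of 9 arrays. The B lineage markers *CD79A* and *CD79B* were as well, and *PECAM1* of the endothelial markers had an intensity of 1899 to 2543 in the controls. Of the 12 T lineage probes *CD3D* had the highest intensity in the controls, 104122 to 110299, so it weighs most in their sum. The summed intensity of the 12 T lineage probes, not normalized, was between 17.53 and 17.58 on the log2 scale in the controls, 17.17 and 17.52 under siRNA1, and 17.29 and 17.47 under siRNA2, below the controls in all 6 siRNA samples. That of the 5 fibroblast and endothelial probes, of which only *PECAM1* and *VWF* were well above background on all 9 arrays, was between 10.99 and 11.39 in the controls, 10.36 and 11.18 under siRNA1, and 10.54 and 10.95 under siRNA2. The labels name no cells other than ALL-SIL. The part of such transcripts in the differences below was not tested. In bulk RNA, fewer cells that express them and less of them per cell cannot be told apart.

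NF-kB proteins are dimeric transcription factors built from *RELA*, *RELB*, *REL* and the products of *NFKB1* and *NFKB2*. In resting cells the dimers are held in the cytoplasm by inhibitors such as the product of *NFKBIA*, and receptors of the TNF family or the T cell receptor release them through adaptor proteins and the IKK kinases. In the non-canonical branch the kinase encoded by *MAP3K14* leads to processing of the *NFKB2* product, the main partner of *RELB*. Genes switched on by NF-kB include its own inhibitors and several of its subunits, so that the pathway feeds back on itself, and the pathway is often active in T-ALL.

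Because several members are themselves target genes, the promoters of the measured members that match the kappaB consensus, a binding motif of NF-kB, are shown. RefSeq promoters on GRCh38.p14 were found for 9 of the 10 genes, with 15 entries in all and none for *RELB*. They were searched on both strands for GGGNNNNNCC and, within it, for the kappaB consensus, patterns that were chosen after the promoters of the members had been read and several patterns compared. The kappaB consensus occurred in 7 of the 15 entries, from 6 genes, *REL*, *NFKB1*, *NFKB2*, *NFKBIA*, *TNFAIP3* and *BIRC3*. It occurred in 5.91% of all 35116 promoters of the same length, a share that counts entries and not genes. As the pattern was chosen on the promoters of the members, nothing is read from this comparison. The loose pattern occurred in all 9 genes, but also in 58.67% of all promoters. The 250 bases before the gene start are given from 5′ to 3′ on the strand of the gene, with matches to the consensus in capitals. They lie at chr2:60881324-60881573 on the plus strand for *REL*, chr4:102501109-102501358 on the plus strand for *NFKB1*, chr14:35404750-35404999 on the minus strand for *NFKBIA*, chr6:137867009-137867258 on the plus strand for *TNFAIP3*, and chr11:102317234-102317483 on the plus strand for *BIRC3*.
REL: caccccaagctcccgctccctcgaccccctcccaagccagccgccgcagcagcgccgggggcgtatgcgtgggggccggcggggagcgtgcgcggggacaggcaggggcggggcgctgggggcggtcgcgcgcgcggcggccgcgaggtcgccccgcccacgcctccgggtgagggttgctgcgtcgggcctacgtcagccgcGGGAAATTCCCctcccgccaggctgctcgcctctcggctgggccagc
NFKB1: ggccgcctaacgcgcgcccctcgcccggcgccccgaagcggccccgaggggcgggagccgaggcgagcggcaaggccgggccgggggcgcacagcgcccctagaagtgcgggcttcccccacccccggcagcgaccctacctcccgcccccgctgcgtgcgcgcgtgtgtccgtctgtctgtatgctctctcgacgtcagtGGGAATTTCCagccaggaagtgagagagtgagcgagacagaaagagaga
NFKBIA: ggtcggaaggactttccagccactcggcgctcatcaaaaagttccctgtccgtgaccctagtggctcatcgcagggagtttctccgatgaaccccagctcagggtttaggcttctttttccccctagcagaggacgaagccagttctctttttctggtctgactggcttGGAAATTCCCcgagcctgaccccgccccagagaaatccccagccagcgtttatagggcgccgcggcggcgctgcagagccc
TNFAIP3: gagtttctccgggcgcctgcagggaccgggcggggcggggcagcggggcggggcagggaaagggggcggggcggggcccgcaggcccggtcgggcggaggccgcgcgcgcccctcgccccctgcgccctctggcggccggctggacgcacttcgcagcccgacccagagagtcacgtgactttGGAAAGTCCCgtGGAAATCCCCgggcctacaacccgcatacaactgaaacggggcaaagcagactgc
BIRC3: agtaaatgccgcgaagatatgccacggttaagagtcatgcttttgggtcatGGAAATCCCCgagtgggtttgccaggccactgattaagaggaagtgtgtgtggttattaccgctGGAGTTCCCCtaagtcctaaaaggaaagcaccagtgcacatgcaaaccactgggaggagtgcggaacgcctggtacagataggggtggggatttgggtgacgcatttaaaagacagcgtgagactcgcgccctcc
Counted from the gene start, the match began at base -49 in *NFKB1* and at base -81 in *NFKBIA*. *TNFAIP3* and *BIRC3* each held 2 separate matches, and in *REL* the matches on the 2 strands overlapped. A match describes letters in the promoter and not a bound site. That *RELA*, *TRAF1* and *ICAM1* had no match depends on the pattern and does not show that they lack an NF-kB site. The *ICAM1* promoter holds TGGAAATTCC, which differs from the consensus only in its opening letter.

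*RELB*, the subunit of the non-canonical branch, was higher under siRNA1 and not under siRNA2. Its only probe, for NM_006509, was dim. The median intensity of its spot was 37, 45 and 41 in control replicates 1 to 3, 72, 60 and 74 under siRNA1, and 35, 50 and 42 under siRNA2. All 3 siRNA1 samples were above every control and siRNA2 sample, whereas control and siRNA2 overlapped. The spot was well above background on 8 of 9 arrays, the exception being siRNA2 replicate 3. After normalization with the model of VSN, which gives values on a generalized log2 scale, *RELB* was at 4.79, 5.22 and 4.76 in the controls, 5.85, 5.83 and 5.78 under siRNA1, and 4.76, 5.20 and 4.78 under siRNA2. Paired by replicate number, the differences from control were 1.06, 0.61 and 1.02 with siRNA1, a mean of 0.90 (SE 0.12, n = 3). Read as plain log2 this mean is 1.86-fold, but for so dim a spot the generalized scale does not give a fold change of the RNA. With siRNA2 they were -0.03, -0.02 and 0.02, a mean of -0.01 (SE 0.12, n = 3) with a 95% interval of -0.27 to 0.25. Between the siRNAs *RELB* was lower under siRNA2 by 1.09, 0.63 and 1.00 in the 3 pairs, with a mean difference of -0.91 (SE 0.12). As slide 1 held replicates 1 and 2 and slide 2 held replicate 3, the siRNA1 difference was 0.84 within slide 1 and 1.02 within slide 2.

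**Figure D1:**
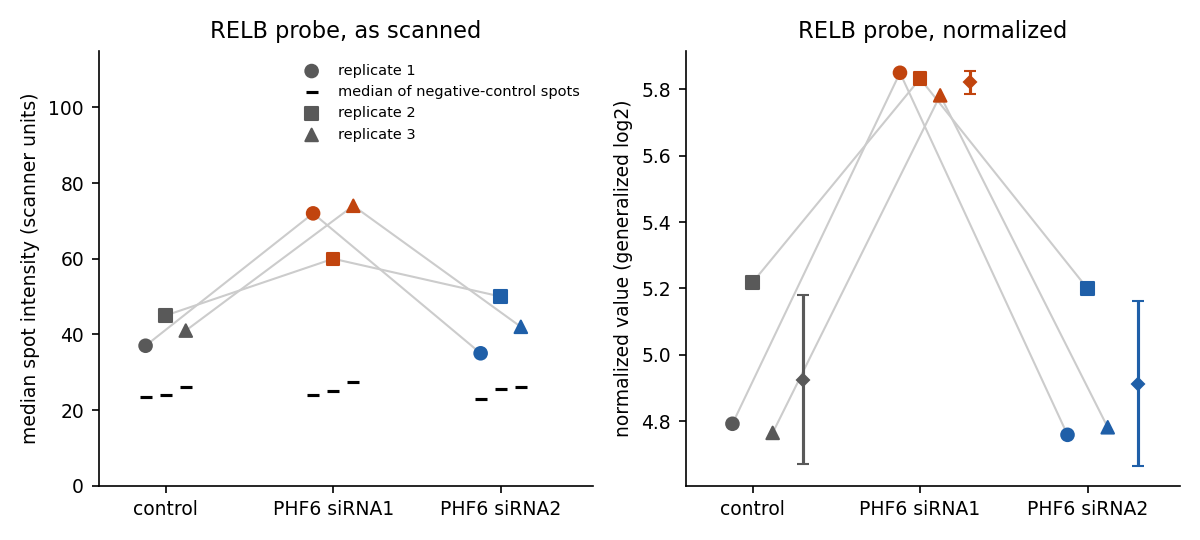
The RELB probe on 9 arrays, as median spot intensity with the negative-control median of each array (left) and as normalized generalized log2 value (right), with symbols for replicate number, grey lines joining equal numbers, and diamonds with bars for the group mean and SD (n = 3). The 3 siRNA1 samples, at intensities of 60 to 74, lie above the 6 others, at 35 to 50.

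The size of the *RELB* difference under siRNA1 varied with the normalization. It was 0.38 with normexp background correction and quantile normalization, 0.76 in the table normalized by the authors, 1.33 with VSN on the background-subtracted signal and 1.39 with that signal scaled to the 75th percentile. The siRNA2 difference was between -0.19 and -0.0009 over 14 settings. In the fifth of tested probes with the lowest signal, which holds *RELB*, the median difference of all 6719 probes was 0.07 under siRNA1 and 0.04 under siRNA2.

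**Figure D2:**
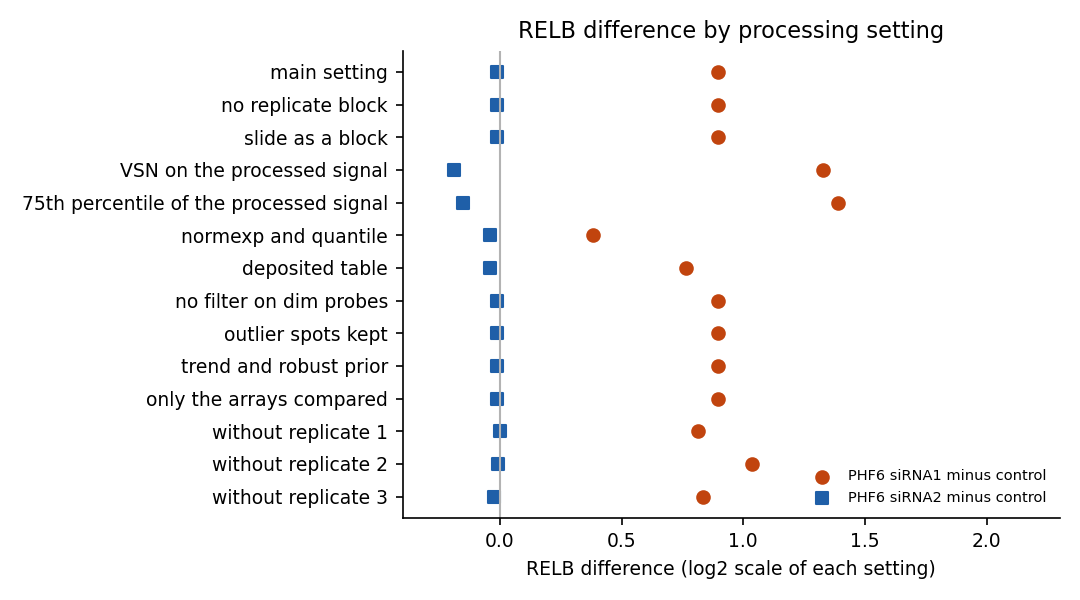
Difference of RELB from control (log2 scale of each setting) under siRNA1 (circles) and siRNA2 (squares) in 14 processing settings; the grey line marks no difference. The siRNA1 points run from 0.38 to 1.39 and the siRNA2 points stay between -0.19 and -0.0009.

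Of the 33595 probes tested across the array with the replicate number as a block, 0.947% were called for siRNA1 against control, 1.64% for siRNA2 against control and 0.0387% for siRNA2 against siRNA1 (limma, adjusted p under 0.05). All 10 NF-kB probes were among those tested. In each of the 3 comparisons 1 of the 10 was called, namely *RELB*, higher under siRNA1, *TRAF1*, lower under siRNA2, and *RELB* again between the siRNAs. Since the genes were chosen on these contrasts, nothing is read from the counts. These calls were lost without the block, when the whole array gave 3 called probes with siRNA1, 4 with siRNA2 and 0 between them (844 of the 33595 had an unadjusted p under 0.05 in the last). Leaving out any 1 replicate number, with the block kept, likewise left 0 of the 10 called in each comparison. The blocked design was set with earlier results of these data, both with and without the block, already known. The median difference of the 10 probes was -0.02 under siRNA1 and -0.04 under siRNA2, beside -0.005 and 0.01 over all tested probes.

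Of the other subunits *NFKB1* had the largest differences from control. *NFKB1*, which encodes the precursor of the p50 subunit, was at 10.14, 10.10 and 9.90 in the controls, 9.86, 9.17 and 9.53 under siRNA1, and 9.98, 9.48 and 9.57 under siRNA2. The siRNA1 samples were all below the controls, and siRNA2 replicate 1 reached into the control range. The mean difference was -0.53 (SE 0.13, n = 3) under siRNA1 and -0.37 (SE 0.13, n = 3) under siRNA2, negative in 3 of 3 pairs with each. Replicate 2 carried the largest pair differences for *NFKB1*, -0.93 with siRNA1 and -0.63 with siRNA2. *RELA*, the main activating subunit of the canonical branch, had 2 probes with mean differences of -0.03 and -0.03 under siRNA1 and -0.07 and -0.15 under siRNA2 (SE 0.10 each), and its groups overlapped at both probes. *REL*, a subunit known from lymphocytes, differed by 0.08 under siRNA1 and 0.09 under siRNA2 (SE 0.10 each).

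Among the target genes that act in signalling, *TRAF1*, an adaptor of TNF family receptors, was lower under siRNA2. It was at 8.77, 9.01 and 8.92 in the controls, 8.56, 8.89 and 8.50 under siRNA1, and 8.13, 8.49 and 8.27 under siRNA2. All 3 siRNA2 samples were below all 6 others, while siRNA1 and control overlapped. The pair differences were -0.64, -0.52 and -0.65 under siRNA2, a mean of -0.61 (SE 0.10) or 0.657 of control, and -0.21, -0.12 and -0.42 under siRNA1, a mean of -0.25 (SE 0.10). *TRAF1* was thus lower than control in 3 of 3 pairs with siRNA1 as well. Between the siRNAs it differed by -0.36 (SE 0.10), which was not called. *TRAF1* was chosen with its values known, and the share of all probes that separate in this way was not counted. *BIRC3*, an inhibitor of apoptosis that ubiquitinates signalling proteins, differed by 0.20 and 0.21 (SE 0.12 each), with replicate 2 opposite in sign to the others under both siRNAs.

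*ICAM1*, an adhesion molecule on the cell surface, was lower in 3 of 3 pairs with each siRNA. Its values were 8.57, 8.10 and 7.83 in the controls, 8.29, 7.58 and 7.61 under siRNA1, and 8.25, 7.70 and 7.41 under siRNA2. The groups overlapped because the replicates differed from each other within each group. The mean difference was -0.34 under siRNA1 and -0.38 under siRNA2 (SE 0.10 each).

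The feedback inhibitors had mean differences from control between -0.0025 and 0.20. *NFKBIA*, which encodes the inhibitor that retains NF-kB in the cytoplasm, had a 95% interval of -0.23 to 0.22 for the difference under siRNA1, and differed by 0.20 (SE 0.10) under siRNA2. *TNFAIP3*, which encodes the ubiquitin-editing protein A20, differed by 0.16 under both siRNAs (SE 0.10 each), positive in 3 of 3 pairs. Both genes hold kappaB matches in the promoters shown above, as do *REL* and *BIRC3*, whose differences were between 0.08 and 0.21, and *NFKB1*, whose differences were negative. A link between match and difference was not tested.

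**Figure D3:**
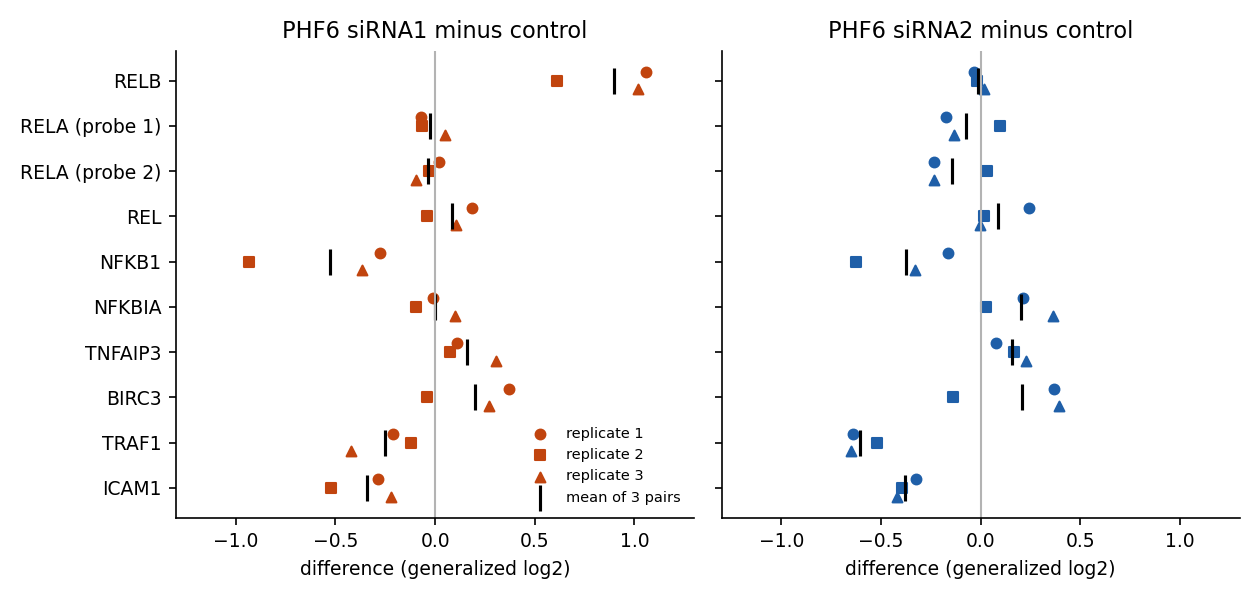
Difference from the control of the same replicate number (generalized log2) for the 10 NF-kB probes under siRNA1 (left) and siRNA2 (right), with symbols for replicates 1 to 3 and a black bar for their mean. RELB lies at 0.61 to 1.06 under siRNA1 and at -0.03 to 0.02 under siRNA2, and TRAF1 at -0.65 to -0.52 under siRNA2.

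Several members differed more between replicate numbers than between siRNA and control. *TNFAIP3* was at 10.73, 11.90 and 10.67 in control replicates 1 to 3, 10.84, 11.97 and 10.98 under siRNA1, and 10.81, 12.07 and 10.90 under siRNA2. Replicate 2 was thus above the mean of replicates 1 and 3 by 1.20, 1.06 and 1.21 in the 3 groups. A difference of at least 1 in the same direction in all 3 groups was found in 0.116% of 33593 probes tested, and *TNFAIP3* was the only 1 of the 10 NF-kB probes to show it. *BIRC3* was higher in replicate 2 by 0.77, 0.41 and 0.25, *NFKBIA* by 0.50, 0.36 and 0.24, and *REL* by 0.34, 0.15 and 0.24. These are values of 1 replicate number and have no test of their own.

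**Figure D4:**
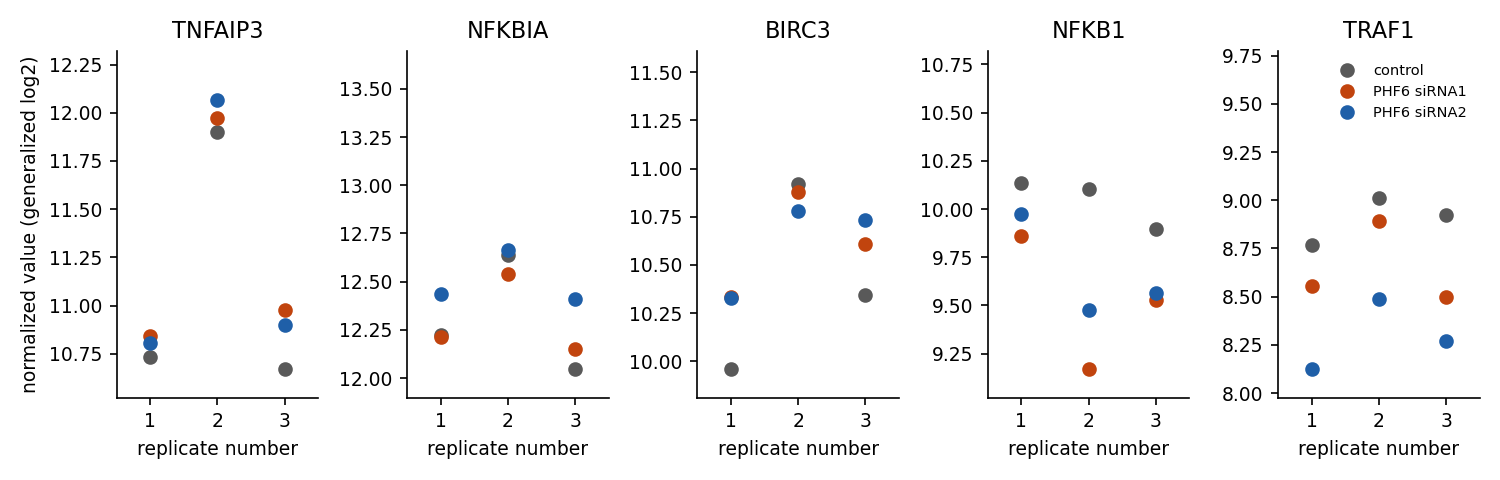
Normalized values (generalized log2) of 5 NF-kB genes by replicate number, coloured by group, each panel spanning the same range of values. TNFAIP3 stands 1.06 to 1.21 higher in replicate 2 than in the mean of the others in every group, while TRAF1 is lowest under siRNA2 at each number.

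Of 88 further genes of the pathway, listed by role, 65 had a tested probe. The list and the blocked design were chosen with earlier results of these data known, which limits the p-values given for these genes. *TNFRSF1B*, which encodes the second receptor of TNF, fell under both siRNAs. Its values were 9.44, 8.32 and 8.64 in the controls, 8.74, 7.32 and 7.70 under siRNA1, and 8.49, 7.53 and 7.57 under siRNA2. The groups overlapped because the replicates were far apart, but every pair was lower, by 0.70 to 1.00 with siRNA1 and by 0.79 to 1.08 with siRNA2. The mean difference was -0.88 under siRNA1 (SE 0.11, n = 3, limma adjusted p = 0.0132) and -0.94 under siRNA2 (SE 0.11, n = 3, limma adjusted p = 0.0098). Without the block the adjusted p was 0.843 and 0.841 in the same 9 arrays by limma.

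*IER3*, a stress-induced target gene, rose under siRNA2. It was at 11.94, 11.47 and 11.14 in the controls, 12.29, 11.93 and 11.95 under siRNA1, and 12.34, 12.29 and 12.09 under siRNA2, where all 3 samples were above the controls. The difference was 0.73 under siRNA2 (SE 0.12, n = 3, limma adjusted p = 0.0311) and 0.54 under siRNA1 (SE 0.12, n = 3, limma adjusted p = 0.0734). Without the block the adjusted p under siRNA2 was 0.802 by limma. No other pathway gene passed the test under siRNA1 or siRNA2, and none did between the siRNAs, where 2 had an unadjusted p under 0.05. The 1 call of 65 genes under siRNA1 and the 2 under siRNA2 stand beside the 0.947% and 1.64% of all probes. Without any 1 replicate number 0 pathway genes were called under siRNA1 and 0 or 1 under siRNA2.

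By role, the 13 tested receptors and ligands held 1 gene that fell under each siRNA, *TNFRSF1B*. *TNFRSF13C*, the receptor of the cytokine BAFF, was among the largest differences that did not pass, 0.51 (limma adjusted p = 0.0739) and 0.29 (limma adjusted p = 0.219). The difference of TNF itself was -0.13 and -0.12. Of the 21 adaptors and ubiquitin ligases none passed, and 18 had a negative difference under siRNA1 and 14 under siRNA2, with medians of -0.16 and -0.06. These genes had a median level of 10.59, and the fifth of all tested probes from 8.59 to 10.84 had median differences of -0.06 and -0.007. The part of signal strength in the shift was not tested. Of the 6 kinases none passed, with differences from -0.56 for *TBK1* to 0.02 for *MAP3K14* under siRNA1.

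The 11 tested inhibitors and cofactors held no call either. *BCL3*, a cofactor of the IkB family, had the most negative difference among them, -0.42 under siRNA1 (limma adjusted p = 0.171) and -0.59 under siRNA2 (limma adjusted p = 0.0817). The 14 other target genes held 1 call, *IER3* under siRNA2. Their differences were positive in 13 genes under siRNA1 and in 9 under siRNA2, beside 49.0% and 51.4% of all tested probes. Their medians were 0.05 and 0.15. Their median level was 10.81, with control means of single genes from 4.94 to 13.16. The part of signal strength in these differences was not tested. *GADD45B*, which takes part in growth arrest and survival, had a difference of 0.56 under siRNA1 (limma adjusted p = 0.101) and 0.32 under siRNA2 (limma adjusted p = 0.289). Over all 65 genes the median was -0.05 with each siRNA.

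**Figure D5:**
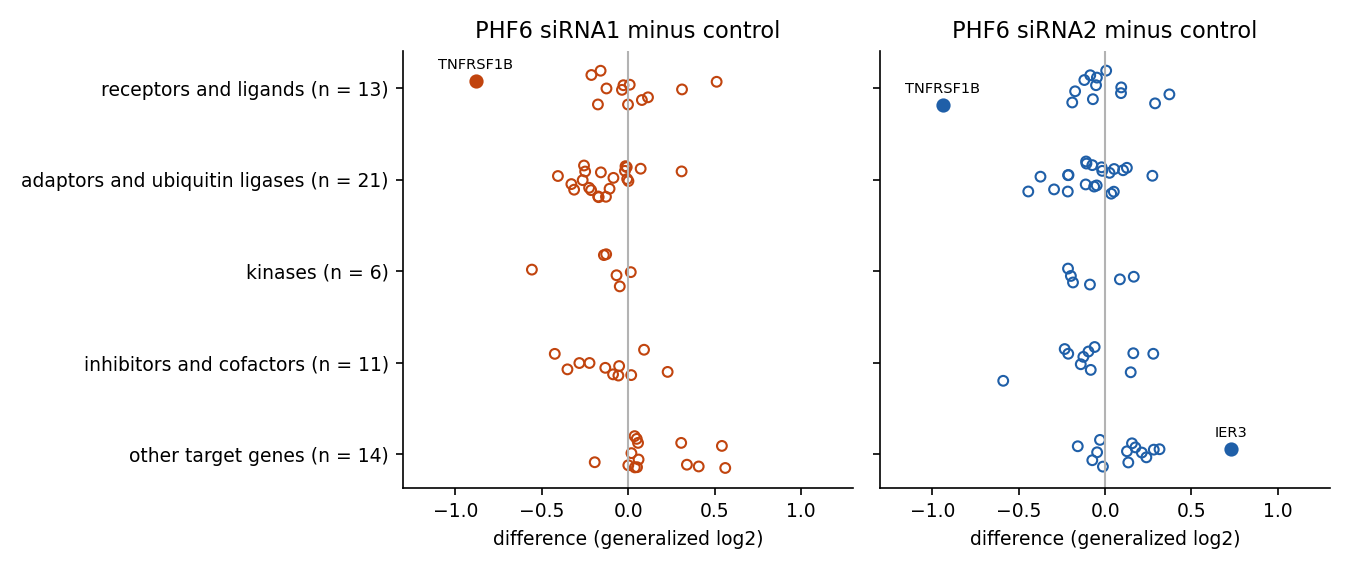
Difference from control (generalized log2) of 65 other NF-kB pathway genes by role under siRNA1 (left) and siRNA2 (right); filled points passed the test (limma, adjusted p under 0.05, replicate number as a block) and open points did not. TNFRSF1B at -0.88 and -0.94 and IER3 at 0.73 are the filled points.

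The genes whose values were most like those of *RELB* over the 9 arrays, after the mean of each replicate number was subtracted, were *ECEL1* (r = 0.97), *PLA2G15* (r = 0.97), *BASP1P1* (r = 0.96), *NPL* (r = 0.95) and *TGIF2LY* (r = 0.95). They were the highest of all tested probes with a symbol, the 9 arrays share replicate numbers and slides, and the correlations carry no test. *ECEL1*, which encodes a membrane metallopeptidase, was at 5.07, 5.61 and 5.68 in the controls, 6.44, 6.59 and 7.25 under siRNA1, and 5.14, 5.16 and 5.83 under siRNA2. Its siRNA1 samples did not overlap with the others. As *ECEL1* was picked for its likeness to *RELB* in these samples, nothing is read from this. A high correlation did not mean a difference of similar size, as *PLA2G15* differed from control by 0.13 under siRNA1 with overlapping groups and *NPL* by 0.28. Among the pathway genes and members the highest were *CCR7* (r = 0.79), *TNFRSF13C* (r = 0.68) and *GADD45B* (r = 0.64). *CCR7*, a chemokine receptor that guides lymphocytes to lymph nodes, differed from control by 0.41 under siRNA1 and by 0.18 under siRNA2 (SE 0.11 each, n = 3). It was named for its likeness to *RELB*, so these differences are a description and carry no test.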

How the data were processed

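The authors deposited the fluorescence intensity of each spot of 9 one-colour arrays with flags, read with Agilent Feature Extraction, version 10.5.1.1 per the file headers and 9.1 in the submitters' processing notes. They also deposited a table of log2 values normalized with VSN, used here as an alternative. The model of VSN was fitted here to the median intensity without background subtraction, by code tested on simulated data (least trimmed squares, quantile 0.9, 7 iterations). Outlier spots were left out and spots of a probe averaged. Symbols came from RefSeq accessions, which named 25729 of 57176 probes. The tested probes were well above background on 3 or more arrays, and the fit was made in R 4.3.3 with limma 3.58.1, with the replicate number as a block, all 9 arrays and the Benjamini-Hochberg method at 0.05. After the mean of each group was subtracted, samples of the same number deviated together (r of 0.31 to 0.75 in 9 pairs). In 18 pairs of different number r was -0.57 to 0.13, which that subtraction itself pushes below 0. The numbers come from the labels. The genes, lists, design and naming rule were chosen with earlier results of these data known. A pathway gene was represented by its brightest tested probe. Named were all members, the pathway genes past the threshold filled to 5 by the largest mean difference, and the genes most like *RELB*. Outside this rule, values were also given for TNF and for the kinases with the lowest and highest difference under siRNA1. Alternatives were other normalizations, filters, blocks and priors, and leaving out each replicate number. Depth has no counterpart on arrays, where precision is set by how many there are and by how far a spot exceeds background. Some marker results are not reported here.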

Additional observations from a re-analysis of the deposited data

Results flagged for a closer look

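*RELB* differed between the siRNAs. Under siRNA2 it was lower than under siRNA1 in 3 of 3 replicate numbers, with a mean difference of -0.9078 on the log2 scale (SE 0.12) from group means of 4.91 and 5.82. The difference between the siRNAs was fitted itself, in the same model as the comparisons with control, but *RELB* was chosen with it known, so that no p is given. It rests on 1 dim probe, and ranged from -1.54 to -0.42 over 14 processing settings.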

How the results depend on the processing

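Without the replicate block, or with the slide as a block, the calls fell to 0 among the 10 NF-kB probes in all 3 comparisons and to 0 among the pathway genes under each siRNA. Over all tested probes they fell from 318, 552 and 13 for siRNA1, siRNA2 and between the siRNAs to 3, 4 and 0 without the block and to 11, 11 and 6 with the slide. *PHF6* passed without the block too, and in all 14 alternatives run with each siRNA, at -1.74 to -1.50 and -1.93 to -1.72. *RELB* under siRNA1 was 1.33 when VSN took the processed signal, 1.39 with the 75th percentile and 0.38 with normexp, and under siRNA2 -0.19, -0.15 and -0.040 in the same order and -0.041 in the deposited table. With the first 2 of these, 0 NF-kB probes were called in any comparison, with 0 pathway genes under siRNA1 and 1 under siRNA2. With normexp 3 pathway genes were called under siRNA1, and 2 NF-kB probes under siRNA2. Without a filter on dim probes 0 NF-kB probes and 0 pathway genes were called in any comparison. With the filter on all 9 arrays, which *RELB* did not pass, 0 NF-kB probes and 3 pathway genes were called under siRNA1. A prior with trend and robust fit gave 2 NF-kB probes and 4 pathway genes under siRNA1. With the arrays compared alone, 0 NF-kB probes and 1 pathway gene were called under siRNA2. Between the siRNAs 0 NF-kB probes were called under each alternative except the trend and robust prior. Leaving out each replicate number in turn gave 0 to 0 NF-kB probes in each comparison, 0 to 0 pathway genes under siRNA1 and 0 to 1 under siRNA2, and *RELB* at 0.82 to 1.04 and -0.03 to -0.0009. Over all probes the counts for siRNA1 and siRNA2 were 27 and 45 for processed-signal VSN, 38 and 53 for the 75th percentile, 492 and 923 with normexp, 33 and 22 without a filter, 598 and 1000 with the filter on all 9 arrays, 854 and 1271 with trend and robust prior, 152 and 107 with the arrays compared alone, and 9 to 135 and 3 to 346 without 1 replicate number, lowest without replicate 2. The causes were not tested, except that fewer samples enter the last. Signal over background limits *RELB*, as its spot was at 35 to 74 beside negative controls at 23 to 27.5.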
